A study of Mus musculus with 8 samples.

Results

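Piezo1, Piezo2, Asic1, Asic2, Asic3, Stoml3 and Stom are the mouse genes for the mechanically gated Piezo channels, for the acid-sensing ion channels (ASICs) and for the stomatin proteins that modulate both. These 7 genes were chosen by name from the 22609 gene symbols of the count files, with earlier results of these data known but by a rule that uses no measured value, and all 7 were found there, 5 of them under an older symbol. Their read counts were followed through 8 libraries of back-labelled sensory neurons, 4 from female and 4 from male mice, to ask whether neurons traced from hindpaw and thigh differ between the sexes in these genes.

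All animals were naive C57BL/6J mice of 8 to 12 weeks, and the females were in estrous phase. The lectin conjugate WGA-488 was injected into hindpaws and thigh muscles, and the lumbar dorsal root ganglia (DRG) were collected 2 days later, 6 ganglia for a sample. Labelled (WGA-488+) neurons were isolated by sorting, and RNA was read with SMART-seq2, which amplifies cDNA from oligo-dT priming. Skin and muscle neurons were mixed in each sample, and there was no group of unlabelled cells or of treated animals, so the only contrast is female against male. The labels give a replicate number and neither a batch nor a date, and nothing in them says that libraries with the same number came from related animals.

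Piezo channels open when the cell membrane is stretched. Piezo2 is the main touch and proprioception channel of sensory neurons, whereas Piezo1 is best known from blood vessels, red cells and other non-neuronal tissues. ASICs are sodium channels of the DEG/ENaC family that open at low pH. Asic3 is the subunit typical of sensory neurons, including those of muscle, and Asic1 and Asic2 are shared with the brain. Stomatin and Stoml3 are membrane proteins that bind these channels, and Stoml3 is needed for normal touch sensitivity in mice.

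The libraries held between 4.80 and 7.33 M gene reads (M, 1e6), so that 3 reads, used here as the floor of detection, stood for 0.409 to 0.625 CPM (counts scaled to 1 M gene reads). The 12 pan-neuronal markers summed to 15898 to 21548 CPM with none at 0 in all libraries. The 12 satellite glia and Schwann cell markers summed to 11144 to 14287 CPM in females and 5182 to 10663 CPM in males, so RNA of glia was present beside that of neurons. Fibroblast markers summed to 98.7 to 151 CPM in females and 44.8 to 85.1 CPM in males, with every female library above every male one. Macrophage markers summed to at most 30.4 CPM and endothelial markers to at most 19.0 CPM, and of 5 erythroid markers Alas2 gave 1 to 22 reads in a library, the most in female replicate 4 (3.71 CPM). The other 4, haemoglobin genes, were at 0 in all libraries, which is uncertain because they are close copies of each other and their reads may not have been counted. Female replicate 4 stood apart from the other females, with counts that differed from theirs by a chi-square of 30.1 to 44.9 per degree of freedom against at most 12.1 between other libraries of one sex, and with lower levels of long genes. Several of the fold changes that it moved are given with and without it.

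Of the 7 genes, 6 passed the filter on low counts, and Stoml3 did not. None of the 6 was called between the sexes at an adjusted p under 0.05 by edgeR, DESeq2 or limma-voom. Across all 12518 genes tested edgeR called 11, or 0.0879%. At an unadjusted p under 0.05, edgeR counted 1 of the 6 genes, Piezo1, DESeq2 counted 0 and limma-voom 1, where edgeR counted 7.11% of all genes tested. None of the 6 had female and male CPM values that did not overlap, against 5.52% of all genes tested. The median log2 fold change, female over male, was 0.03 for the 6 genes and 0.0034 for all genes.

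**Figure D1:**
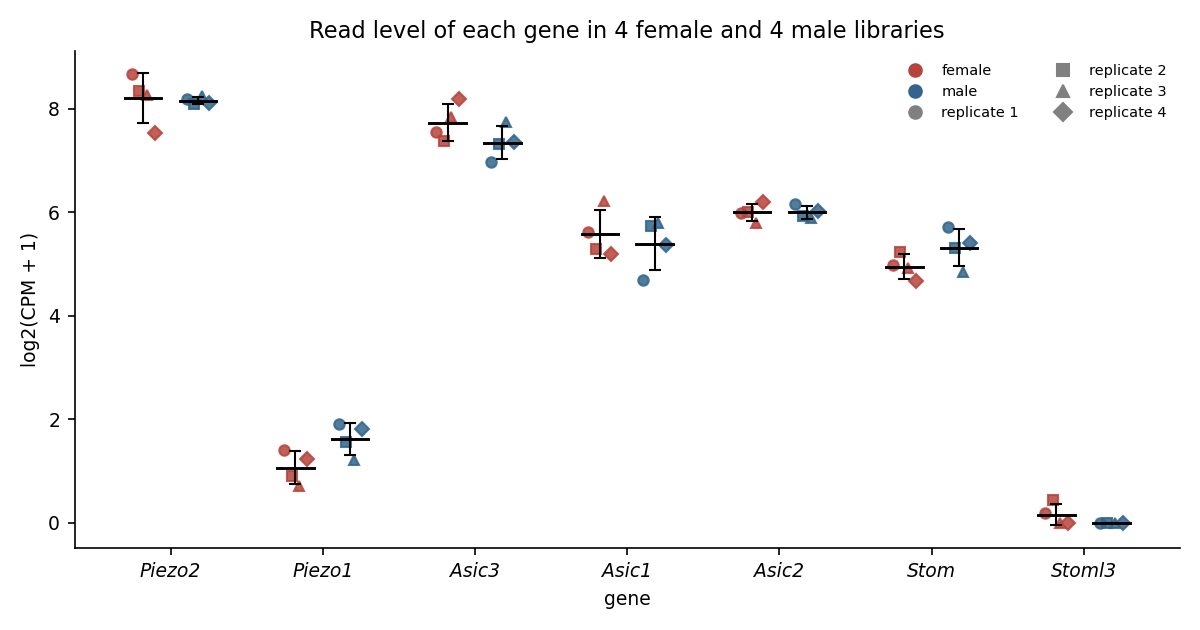
Level of each gene as log2(CPM + 1) in each library, female libraries in red and male in blue, with the replicate number as the marker shape; the black bar is the mean of 4 libraries and the error bar 1 SD. Female and male points overlap for every gene that passed the filter, Piezo2 spread from 184 to 409 CPM in females, and Stoml3 lies at 0 in 6 of the 8 libraries.

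Per kilobase of exons, the scale on which genes can be compared, Asic3 had the highest level of the 7 genes and Stoml3 the lowest. The mean over 8 libraries was 98.3 CPM per kb (SD 26.6) for Asic3, 22.7 (SD 4.77) for Piezo2 and 14.8 (SD 1.43) for Asic2. Stom followed with 12.4 CPM per kb (SD 3.11), then Asic1 with 10.2 (SD 3.26), Piezo1 with 0.163 (SD 0.0746) and Stoml3 with 0.029 (SD 0.060). Among 16821 detected genes with a length, Asic3 was at or above 96.0% and Piezo2 at or above 83.4%, while Piezo1 was at or above 17.7% and Stoml3 6.80%.

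Neighbours in this order were compared within libraries with a two-sided exact sign-flip permutation test over 6 pairs, whose smallest possible p is 0.00781. Asic3 was above Piezo2 in 8 of 8 libraries, by 2.10 log2 units (SD 0.59, exact p = 0.00781, adjusted p = 0.0234). Piezo2 was above Asic2 in 7 of 8 libraries, by 0.59 log2 units (exact permutation p = 0.0156, adjusted p = 0.0234). Asic2 exceeded Stom by 0.29 log2 units in 7 of 8 libraries (exact permutation p = 0.0391, adjusted p = 0.0469), and the exact permutation p was 0.0781 when any one of the 4 female libraries or male replicate 3 was left out. Stom and Asic1 were not distinguishable: the mean difference was 0.31 log2 units with an SD of 0.72 (exact permutation p = 0.273). Asic1 was above Piezo1 in all 8 libraries (5.94 log2 units, exact permutation p = 0.00781), and Piezo1 was above Stoml3 in 7 of 8 (exact permutation p = 0.0156). Without the length scaling, in CPM alone, Piezo2 stood above Asic3 by 0.64 log2 units and Asic1 above Stom by 0.36.

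**Figure D2:**
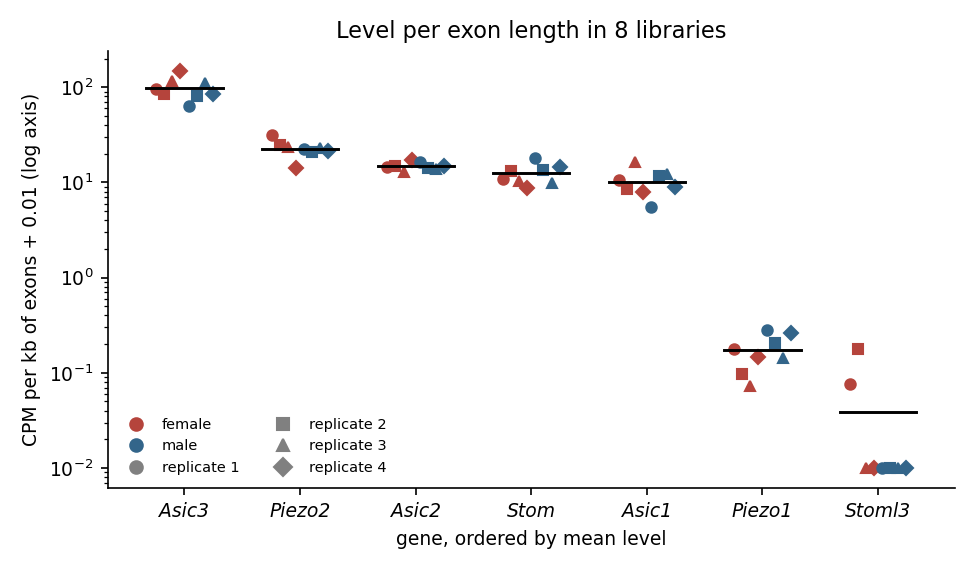
Level of each gene per kilobase of exons (CPM per kb + 0.01, log axis) in each library, genes ordered by the mean of 8 libraries (black bar), red for female and blue for male. Asic3 lies highest with a mean of 98.3, 4 genes lie between means of 10.2 and 22.7, and Piezo1 (0.163) and Stoml3 (0.029) lie far below them.

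The sequence at the start of the gene is shown for the highest of the 7 genes and for the lowest 2, from RefSeq on GRCm38.p6, each read 5′ to 3′ on the gene's own strand from 250 bases before to 50 bases after the annotated start. Capitals mark every CG dinucleotide, the site of DNA methylation in mammals, which is the only motif searched for and reads the same on both strands. The windows are Asic3 at chr5:24413201-24413500 on the plus strand, Piezo1 at chr8:122551280-122551579 on the minus strand and Stoml3 at chr3:53488457-53488756 on the plus strand.
Asic3: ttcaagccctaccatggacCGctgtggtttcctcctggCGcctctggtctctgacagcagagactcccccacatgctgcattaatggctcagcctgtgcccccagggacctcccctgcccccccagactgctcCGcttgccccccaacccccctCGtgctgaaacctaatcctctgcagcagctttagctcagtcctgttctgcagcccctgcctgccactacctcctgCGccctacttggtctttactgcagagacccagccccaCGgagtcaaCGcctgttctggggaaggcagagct
Piezo1: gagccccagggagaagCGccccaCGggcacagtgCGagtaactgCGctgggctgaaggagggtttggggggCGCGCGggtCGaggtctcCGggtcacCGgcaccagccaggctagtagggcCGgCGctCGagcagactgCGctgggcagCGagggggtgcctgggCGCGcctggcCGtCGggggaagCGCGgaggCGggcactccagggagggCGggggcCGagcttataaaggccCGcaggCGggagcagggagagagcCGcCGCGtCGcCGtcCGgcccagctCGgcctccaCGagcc
Stoml3: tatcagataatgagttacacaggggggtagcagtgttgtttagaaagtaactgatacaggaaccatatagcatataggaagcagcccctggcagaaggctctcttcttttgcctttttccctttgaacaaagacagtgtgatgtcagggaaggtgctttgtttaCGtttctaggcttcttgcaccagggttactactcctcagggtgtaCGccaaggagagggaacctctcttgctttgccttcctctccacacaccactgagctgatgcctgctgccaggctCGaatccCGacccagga
The Piezo1 window held 34 CG in 300 bases at a GC content of 75%, and 92.3% of 32851 mouse windows of this length held fewer. Asic3 held 7 CG, the median of all windows, and Stoml3 held 4, with 31.4% of windows holding fewer. The windows of the highest and the lowest gene of the set were both at or under the median. No window of Piezo2 was counted, and among the windows counted the one with the most CG belonged to a gene near the floor of detection. The other windows counted held 16 CG for Stom, 7 for Asic1, and 16 and 9 for the 2 annotated starts of Asic2.

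Piezo2, listed under its older symbol Fam38b, had the most reads of the set in all, 15055, and 1094 to 2973 in a library. In female replicate 4 Asic3 had more, with 1724 reads. Piezo2 lies on the minus strand of chromosome 18, at 63169867 to 63546837 of mm9, with 13036 exon bases. In female replicates 1 to 4 it was at 409, 323, 307 and 184 CPM, and in male replicates 1 to 4 at 291, 270, 302 and 277 CPM. The female libraries held both the highest and the lowest value and enclosed all 4 male values. The mean was 306 CPM ± 92.5 in females and 285 CPM ± 14.2 in males (SD, n = 4 each), a log2 fold change of 0.08 ± 0.20 (SE, 95% interval -0.36 to 0.52, edgeR adjusted p = 0.930).

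The spread of Piezo2 among females went with exon length. In female replicate 4, genes as long as Piezo2 lay 0.51 log2 units below the mean of the 8 libraries, where in the other 7 they lay 0.01 to 0.22 above it. With each library's trend of level with exon length removed, Piezo2 was at 351, 285, 305 and 263 CPM in the females and 257 to 287 CPM in the males. The coefficient of variation was 30.3% before and 12.4% after in females, and 4.98% before and 4.82% after in males. The log2 fold change with the trend removed was 0.12. Without female replicate 4 it was 0.26 (edgeR adjusted p = 0.359), and without female replicate 1 it was -0.08. The part of RNA quality or cell type in this trend was not tested.

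**Figure D3:**
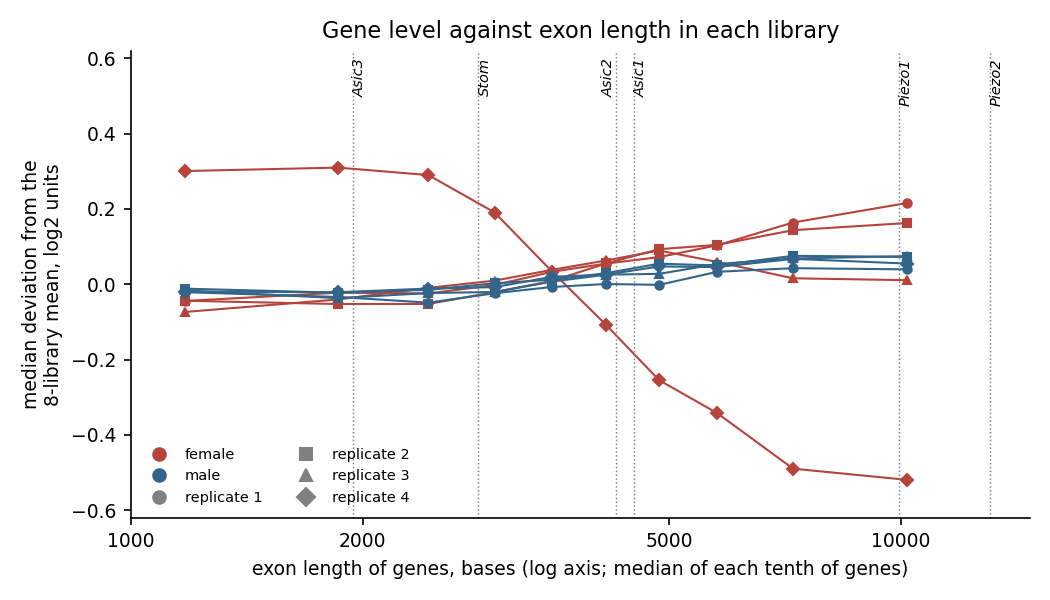
Median deviation of gene levels from the 8-library mean (log2 units) against the median exon length of 10 equal bins of genes (log axis), a line for each library; dotted lines mark the exon lengths of the 6 genes that passed the filter. Female replicate 4 runs from 0.30 for the shortest genes to -0.52 for the longest, and the other 7 libraries stay within -0.07 to 0.22.

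Piezo1, listed as Fam38a, was counted in only 3 to 20 reads of a library and 86 reads in all. It lies on the minus strand of chromosome 8, at 125005598 to 125075229 of mm9, with 9933 exon bases. The female libraries 1 to 4 gave 1.65, 0.87, 0.62 and 1.35 CPM, and the male libraries gave 2.73, 1.93, 1.32 and 2.51 CPM. The 3 highest values were male, and the lowest male value lay below the 2 highest female ones. The mean was 1.12 CPM ± 0.462 in females and 2.12 CPM ± 0.632 in males (SD, n = 4 each), and the log2 fold change was -0.90 ± 0.38 (SE, 95% interval -1.73 to -0.06). edgeR's quasi-likelihood test gave an unadjusted p of 0.0378 and an adjusted p of 0.696, so the difference did not pass. At this depth the counting error alone was 30.5% of the mean, close to the coefficients of variation of 41.2% in females and 29.8% in males.

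A limit on Piezo1 is that 2441 of its exon bases are shared with Ctu2, a tRNA-modifying enzyme on the opposite strand, at 17.0 to 31.2 CPM. Whether reads were counted by strand is not given in the sources used here. The methods name strand-specific preparation for other libraries of the study and none for these. Reads of the shared bases may thus not tell the 2 genes apart, and the part of Ctu2 in the Piezo1 counts was not tested. Endothelial markers, of cells known for Piezo1, summed to 3.96 to 19.0 CPM in females and 4.37 to 8.73 CPM in males, and the 1 of 7 that passed the filter, Pecam1, was at 0.825 to 2.37 CPM, in the range of Piezo1, with a log2 fold change of -0.0086. Cdh5, which defines that cell type, gave 0 to 3 reads. Macrophage markers summed to 9.49 to 30.4 CPM in females and 4.23 to 11.9 CPM in males, a mean of 23.9 against 9.29 CPM. Of the 10 macrophage markers 4 were tested, 3 with a higher fitted level in females and 1, C1qb, in males (means 1.94 and 2.13 CPM). Of those not tested, Aif1, at 1 to 8 reads in a library, had means of 0.343 CPM in females and 0.700 CPM in males. The others not tested had the higher mean in females, and Ptprc among them was at 0 in 7 of 8 libraries. The part of these cells in the Piezo1 reads was not tested. With the mean level of glial markers as a covariate the log2 fold change of Piezo1 was -0.33, and with that of large-fibre markers -0.50. Piezo1 no longer passed the low-count filter when male replicate 1, 2 or 4 was left out.

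Reads of Piezo2 outnumbered those of Piezo1 by 104 to 421 times in a library, with 0.5 added to each count. The ratio was 238, 338, 421 and 129 in females and 104, 135, 215 and 107 in males, with overlap between the sexes. The log2 ratio was 0.94 higher in females (two-sided exact permutation test over 70 labelings, p = 0.0857, adjusted over 5 ratios p = 0.143, smallest possible 0.0286). Per kilobase, the mean level of Piezo2 was 139 times that of Piezo1.

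Asic3, listed as Accn3, is a compact gene on the plus strand of chromosome 5, at 23919269 to 23923652 of mm9, with 1942 exon bases and 911 to 1724 reads in a library. Female libraries 1 to 4 were at 186, 164, 227 and 290 CPM and male libraries at 124, 158, 213 and 163 CPM. Female replicate 4 was the highest and male replicate 1 the lowest, and the ranges of the sexes overlapped between 164 and 213 CPM. The mean was 217 CPM ± 55.5 in females and 165 CPM ± 36.5 in males (SD, n = 4 each), a log2 fold change of 0.38 ± 0.20 (SE, 95% interval -0.06 to 0.82, edgeR adjusted p = 0.731).

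As a short gene, Asic3 moved in the opposite sense to Piezo2 in female replicate 4, where genes of its length lay 0.29 log2 units above the mean. With the length trend removed that library held 238 CPM, next to 234 CPM in female replicate 3, and the log2 fold change was 0.29. It was 0.21 without female replicate 4, and 0.03 with the level of large-fibre markers or 0.02 with that of glial markers as a covariate.

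Asic1, listed as Accn2, lies on the plus strand of chromosome 15, at 99501149 to 99531561 of mm9, with 4498 exon bases. It was at 47.8, 38.4, 73.1 and 35.4 CPM in female libraries 1 to 4 and at 24.8, 52.0, 54.7 and 40.1 CPM in male libraries. One library of each sex set the range, female replicate 3 at the top and male replicate 1 at the bottom. The mean was 48.7 CPM ± 17.1 in females and 42.9 CPM ± 13.6 in males (SD, n = 4 each), with a log2 fold change of 0.17 ± 0.28 (SE, 95% interval -0.46 to 0.79, edgeR adjusted p = 0.897). The log2 fold change was 0.29 without female replicate 4. Its sign turned without female replicate 3 (-0.10) and without male replicate 1 (-0.02), and with glial (-0.28) or large-fibre markers (-0.35) as a covariate.

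Asic2, listed as Accn1, lies on the minus strand of chromosome 11, at 80693671 to 81781959 of mm9, with 4264 exon bases, and its 2 annotated transcripts were counted together. It was at 62.3, 63.3, 54.4 and 72.9 CPM in female libraries 1 to 4 and at 70.5, 60.0, 58.3 and 63.7 CPM in male libraries. The coefficient of variation was 12.03% in females and 8.60% in males, and 19.6% and 9.46% with the length trend removed. The mean was 63.2 CPM ± 7.61 in females and 63.1 CPM ± 5.43 in males (SD, n = 4 each). The log2 fold change was -0.02 ± 0.12 (SE, edgeR adjusted p = 0.978), and its 95% interval of -0.29 to 0.25 corresponds to 0.816 to 1.19 times the male level.

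Within the ASICs, Asic3 made up most of the signal per kilobase of exons in every library. Its share of the summed Asic1, Asic2 and Asic3 levels was 79.1% ± 3.41 (SD, n = 8), from 74.4% in male replicate 1 to 85.7% in female replicate 4. Asic2 held 12.6% ± 3.30, with 19.2% in male replicate 1, and Asic1 held 8.34% ± 2.17. The Asic3 share was 80.8% ± 3.32 in females and 77.3% ± 2.80 in males (SD, n = 4 each), with overlapping ranges. The ratio of Asic3 to Asic1 reads ran from 3.05 to 8.19, and its log2 value differed between females and males by 0.20 (exact permutation p = 0.629, adjusted over 5 ratios p = 0.714). The ratio of Asic2 to Asic1 reads ran from 0.744 to 2.84 with a difference of -0.19 (exact permutation p = 0.714).

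Stom, the gene of stomatin, lies on the minus strand of chromosome 2, at 35169506 to 35192529 of mm9, with 2820 exon bases. It was at 30.7, 36.8, 29.2 and 24.4 CPM in female libraries 1 to 4 and at 51.3, 38.5, 27.7 and 41.4 CPM in male libraries. The 3 highest values were male, while male replicate 3 lay within the female range. The mean was 30.3 CPM ± 5.10 in females and 39.7 CPM ± 9.70 in males (SD, n = 4 each), a log2 fold change of -0.41 ± 0.20 (SE, 95% interval -0.85 to 0.03, edgeR adjusted p = 0.710). With the length trend removed it was -0.46, with large-fibre markers as a covariate -0.08 and with glial markers -0.0026.

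Stoml3, on the plus strand of chromosome 3 at 53292649 to 53312424 of mm9, gave 1 read in female replicate 1, 2 reads in female replicate 2 and 0 in the other 6 libraries. All 8 libraries were under the floor of 3 reads, so no fold change is given. Its 3 reads in 50651807 gene reads equal the limit that a count of 0 allows over all libraries, 0.0592 CPM, and cover counting error only. Two-sided exact permutation tests of its ratio to Piezo2 and to Stom each gave p = 0.0286, the smallest possible, and an adjusted p of 0.0714 over 5 ratios. In 6 libraries these ratios consist of the 0.5 added read and the other gene's count, and with 5 reads added the exact permutation p was 0.229 and 0.0571.

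**Figure D4:**
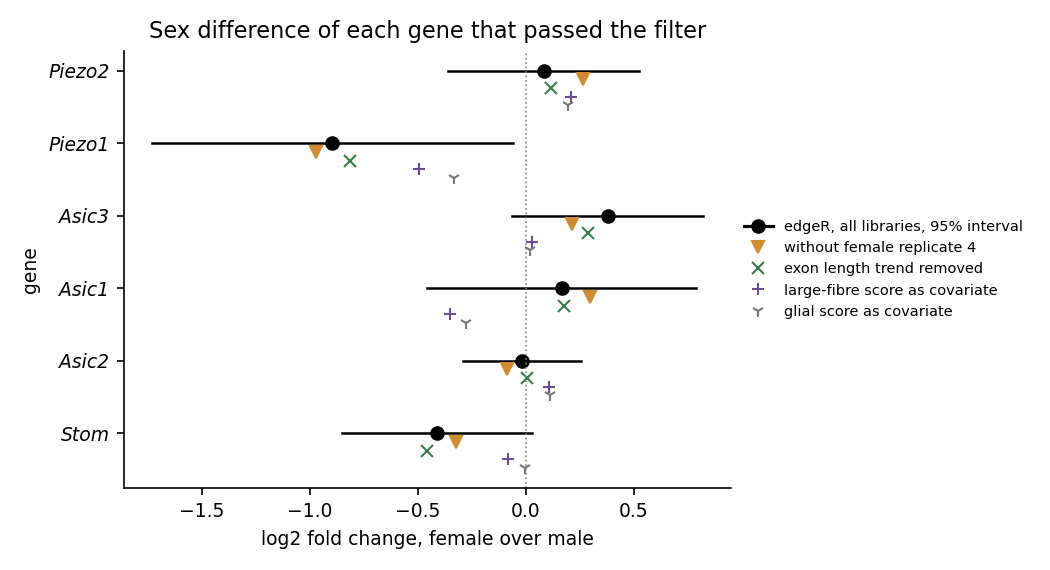
Log2 fold change, female over male, for the 6 genes that passed the filter: black points and lines are the edgeR estimate and 95% interval, and colored marks the estimate without female replicate 4, with the length trend removed, or with a marker level as a covariate. The Piezo1 interval (-1.73 to -0.06) alone lies clear of 0 before adjustment, and with either covariate Asic3 lies at 0.02 to 0.03 and Stom at -0.08 to -0.0026.

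The genes did not move across libraries as one group. Deviations from the gene's own mean of log2(CPM + 1) ran from -0.79 to 0.73. In male replicate 1 Piezo1 (0.56) and Stom (0.57) were at their highest and Asic1 (-0.79) and Asic3 (-0.57) at their lowest. In female replicate 4 Asic3 (0.65) and Asic2 (0.21) were at their highest while Piezo2 (-0.65) and Stom (-0.47) were at their lowest. Female replicate 3 held the highest Asic1 (0.73) and the lowest Piezo1 (-0.64).

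Male replicate 1 was also the lowest library for the large-fibre, glial, fibroblast and macrophage marker lists. Of 63 marker genes tested, edgeR and limma-voom called 0 at an adjusted p under 0.05 and DESeq2 called 4, where it called 0.383% of all genes tested. Each tool counted 20 at an unadjusted p under 0.05, where edgeR counted 7.11% of all genes tested. The 12 large-fibre neuron markers, of the cells that carry touch and proprioception, summed to 3436 to 6011 CPM in females and 2362 to 4205 CPM in males, lowest in male replicate 1. Of them, 11 had a higher fitted level in females and 3 had an unadjusted edgeR p under 0.05, with a median log2 fold change of 0.41, or 0.27 without male replicate 1. Of the 6 peptidergic neuron markers 5 had a higher fitted level in males, 4 at an unadjusted p under 0.05 and 1 without male replicate 1, with a median of -0.32. Of the 9 non-peptidergic markers 7 had a higher fitted level in males, with a median of -0.20, or -0.06 without female replicate 4. None of these 7 was at an unadjusted p under 0.05, and the 1 marker of the list that was, Sst, had the higher fitted level in females (log2 fold change 1.46, 13.6 against 4.84 CPM). The 3 markers of C-fibre touch neurons had a median of 0.07, or -0.07 without female replicate 4 and 0.29 without male replicate 1, and none was at an unadjusted p under 0.05. Glial markers were higher in females by fitted value in 10 of 11, 5 at an unadjusted p under 0.05, with a median of 0.44, or 0.24 without male replicate 1. Of 8 fibroblast markers 5 were tested, and all 5 had a higher fitted level in females, 4 at an unadjusted p under 0.05. Their median was 0.71, and male replicate 1 lay lowest (-1.11 log2 units from the mean of the list). Of those not tested, Pdgfra had means of 1.14 CPM in females and 2.13 CPM in males, and Mgp 0.724 and 0.578 CPM. Col1a1 had means of 9.53 and 0.402 CPM, with 32.7 CPM in female replicate 4. Without that library 6 fibroblast markers were tested, 5 with a higher fitted level in females and 1 in males, 2 of them at an unadjusted p under 0.05. Of 4 tested macrophage markers 3 had a higher fitted level in females, 3 at an unadjusted p under 0.05, with a median of 1.54, again with male replicate 1 lowest (-1.01). Without female replicate 4, 2 were at an unadjusted p under 0.05, with a median of 1.07. Female and male values did not overlap for 3 glial, 3 fibroblast, 1 macrophage and 1 non-peptidergic marker and for no tested marker of the other lists, against 5.52% of all genes tested. In sorted pools, fewer cells of a type and less RNA per cell cannot be told apart. The part of these shifts in the values of the 6 genes was not tested. The mean level of glial markers ran from 7.48 to 7.80 log2 units in females and from 6.54 to 7.46 in males, without overlap. Fits with this covariate therefore cannot separate sex from the glial level, and their values are description only. The large-fibre level overlapped, with 6.23 in female replicate 1 and 6.30 in male replicate 2.

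**Figure D5:**
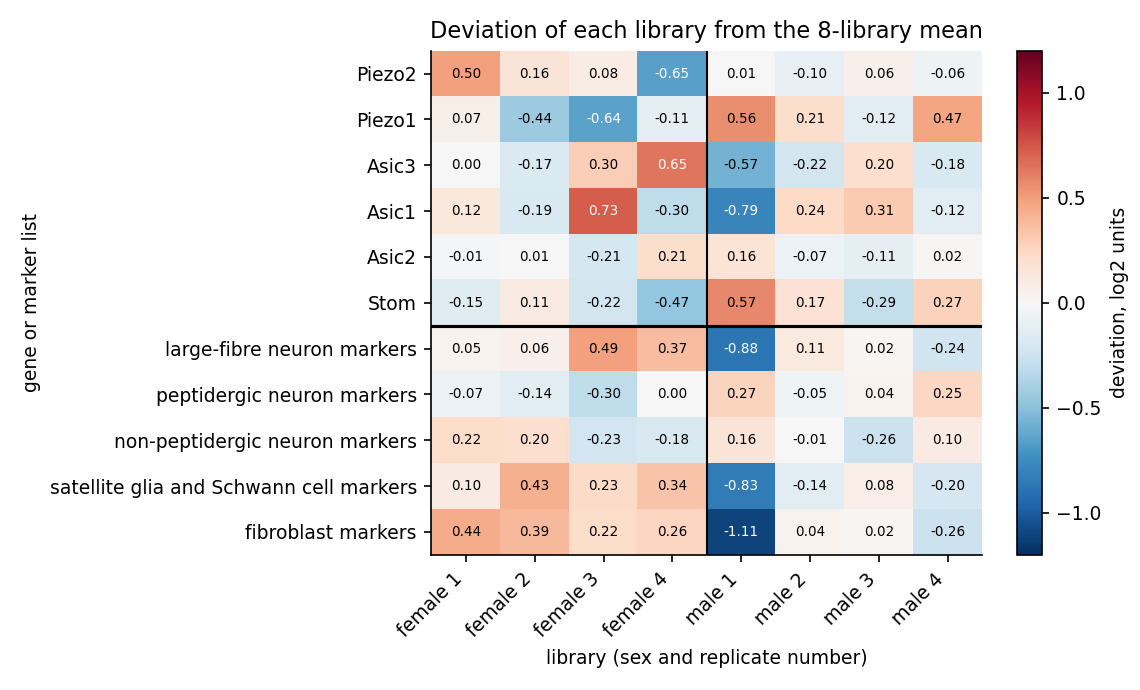
Deviation of each library (columns, 4 female then 4 male) from the 8-library mean, in log2 units, for log2(CPM + 1) of 6 genes (upper rows) and for the mean log2(CPM + 1) of 5 marker lists (lower rows), red above and blue below the mean. Male replicate 1 holds both the lowest large-fibre (-0.88) and glial (-0.83) levels and the lowest Asic1 (-0.79) and Asic3 (-0.57), and the highest Piezo1 (0.56) and Stom (0.57).

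Other genes of the same pathways, in 6 lists of 48 genes, gave 30 that passed the low-count filter. edgeR called 0 of them at an adjusted p under 0.05 and 2 at an unadjusted p under 0.05, Slc9a3r1 among them, against 7.11% of all genes tested. DESeq2 and limma-voom each called 0 at an adjusted p and 3 at an unadjusted p under 0.05, Slc9a3r1 and Trpa1 among them. The share of all genes at an unadjusted p is given for edgeR alone, so these counts have no background of their own. Values did not overlap between the sexes for 2 of the 30 (6.67%), Trpa1 and Slc9a3r1, against 5.52% of all genes tested. Of the 30, 14 had a higher fitted level in females and 16 in males, with a median log2 fold change of -0.04.

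Among 17 other proposed mechanically gated channels, 13 were tested and 0 passed. The highest levels per kilobase were those of Tmem63b (34.8 CPM per kb) and Tmem63c (34.6), members of the OSCA/TMEM63 family of stretch-gated channels, both with a higher mean than Piezo2. Trpa1, the irritant receptor of nociceptors, was at 117, 127, 86.2 and 24.3 CPM in females and 193, 142, 141 and 130 CPM in males. All male values of Trpa1 lay above all female values, and its log2 fold change was -0.79 ± 0.39 (SE, edgeR adjusted p = 0.711), with the lowest value in female replicate 4. Without that library it was -0.48 ± 0.16 (SE, edgeR adjusted p = 0.341). With glial or large-fibre markers as a covariate it was -0.46 or -0.42. Tmem87a was at 7.89 CPM ± 0.921 in females and 6.26 CPM ± 1.55 in males (SD, n = 4 each).

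Proteins that modulate Piezo channels gave 3 tested genes of 5, and Mdfi was at 0 in all libraries. Anxa6, a membrane-binding annexin, was at 322 CPM per kb and the calcium pump Atp2a2 at 16.7 CPM per kb. Neither passed the test, with log2 fold changes of 0.18 ± 0.13 and -0.28 ± 0.22 (SE), which were 0.06 and -0.08 without female replicate 4.

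None of the 5 other DEG/ENaC channels passed the low-count filter. Scnn1a, an epithelial sodium channel subunit, gave 1 to 8 reads in a library, and Asic4 gave 0 to 3. Accn5, the older symbol of Asic5, was at 0 in all libraries. Asic1, Asic2 and Asic3 were thus the only tested genes of the family among the 8 that were looked up.

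Of 7 ASIC-binding proteins 6 were tested and 0 passed. S100a10, an annexin partner, was the highest at 819 CPM per kb. Slc9a3r1, a PDZ scaffold, was at 115, 112, 117 and 148 CPM in females and 50.5, 83.9, 101 and 78.7 CPM in males. All female values were above all male ones, and the log2 fold change was 0.63 ± 0.19 (SE, edgeR adjusted p = 0.613), or 0.14 with glial and 0.28 with large-fibre markers as a covariate. Dlg4, the scaffold PSD-95, was at 24.6 CPM ± 1.65 and 21.0 CPM ± 2.74 (SD, n = 4 each).

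In the stomatin family, Stoml1 rather than Stom had the most RNA. Stoml1, whose protein inhibits ASICs, was at 127 CPM per kb (SD 16.9, n = 8), 10.2 times the mean of Stom and higher than the mean of each of the 7 genes. Its log2 fold change was 0.12 ± 0.13 (SE, edgeR adjusted p = 0.829), and 0.0027 without female replicate 4, where Stoml1 was at 331 CPM against 228 to 260 CPM in the other females. Stoml2, a mitochondrial member, was at 18.9 CPM per kb.

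Of 11 other acid-responsive channels and receptors 6 were tested and 0 passed, and Gpr132 was at 0 in all libraries. Trpv1, the heat and capsaicin receptor, had the highest level per kilobase at 70.4 CPM per kb, below Asic3. It was at 224 CPM ± 63.3 in females and 294 CPM ± 82.0 in males (SD, n = 4 each), a log2 fold change of -0.41 ± 0.24 (SE, edgeR adjusted p = 0.749), or -0.24 without female replicate 4 and -0.21 without male replicate 1. With glial or large-fibre markers as a covariate the sign turned, to 0.14 and 0.04. The potassium channel Kcnk1 was at 84.5 CPM ± 30.0 in females and 66.1 CPM ± 19.2 in males (SD, n = 4 each). Its log2 fold change was 0.33 ± 0.27 (SE, edgeR adjusted p = 0.805), 0.17 without female replicate 4 and 0.20 without male replicate 1, and with the same covariates -0.02 and -0.22.

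For each of the 6 genes, the 3 genes with the most similar pattern over the 8 libraries were found among the 12517 other tested genes, by the root mean square difference of log2(CPM + 1) centred on each gene's mean. For Piezo2 they were Prrc2b (0.070 log2 units), Spock2 and Gpr56, and for Piezo1 Timeless (0.114), Lgals3 and C2. Asic1 was closest to Parp16 (0.121), Sema6a and Shh, Asic2 to Gabarap (0.026), Polr2c and Sncg, and Asic3 to Hist1h1c (0.084), Cd302 and Tagln3. Stom was closest to Slc45a3 (0.108), BC028528 and Vamp4. No gene of the set was among the closest of another: the nearest such pair was Piezo1 and Stom, at 0.299 log2 units, where Stom was number 448 in the order of similarity to Piezo1. These distances depend on a gene's own root mean square deviation, which ran from 0.128 log2 units for Asic2 to 0.429 for Asic1. The pattern of Piezo1 rests on 3 to 20 reads in a library.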

How the data were processed

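WGA-488+ DRG neurons were profiled in 4 libraries from female and 4 from male mice, and groups and numbers came from the labels. Per the labels and methods, the authors mapped single reads of 50 bases to mm9 (TopHat2), and HTSeq assigned them to gene symbols. The deposited values are these raw counts, one file per library, without normalization. Tools named in the submitters' processing notes were bcl2fastq, TopHat2 and HTSeq. Tool versions, gene annotation and strand setting are not given in the sources used here. Reads carried no molecular identifiers, so PCR copies were counted as reads and floors cover counting error only.

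Counts were tested with edgeR 4.0.16 (quasi-likelihood, TMM factors, filterByExpr, sex alone, Benjamini-Hochberg adjustment over 12518 genes) in R 4.3.3, with DESeq2 1.42.0 and limma-voom (limma 3.58.1) as alternatives. The scripts were tested on simulated data. CPM are counts scaled to 1e6 gene reads. Exon lengths and mm9 positions came from GENCODE M1, which matched 21627 of 22609 symbols (95.7%). Levels per kilobase took 0.01 as pseudocount, and patterns used log2(CPM + 1). Ratios were of reads with 0.5 added. Promoter windows came from RefSeq on GRCm38.p6, and no position was converted between builds. No sequence is shown for Piezo2.

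The genes named were the 7 genes, the 2 of each pathway list with the highest CPM per kb and the 2 with the smallest unadjusted edgeR p, and for each of the 6 tested genes the 3 most similar genes. Marker genes, Ctu2 and pathway genes at 0 were named outside this rule after their values were seen. Values of the marker lists without 1 library were likewise added after the data were seen. One gene that this rule named is not reported here. The 7 genes, the lists and the tests were chosen with earlier results of these data known. Same-sex libraries differed pairwise by a chi-square of at least 2.82 per degree of freedom, so no file repeats another within counting noise, and none were merged; with PCR copies among the reads this does not test where the libraries came from.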

Additional observations from a re-analysis of the deposited data

How the results depend on the processing

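The 6 tested genes were fitted under 19 alternatives, which gave 111 values. None passed an adjusted p of 0.05, 16 had an unadjusted p under 0.05, and 11 had the opposite sign to the main value. These values are refits of the same 8 libraries and are not independent. Most of the 16 were for Piezo1, a gene with 3 to 20 reads in a library. The share of all genes tested at an unadjusted p under 0.05 was 7.11% in the main fit and is not given for the alternatives. The number of genes called in all, 11, became 48 (23 higher in females, 25 in males) with DESeq2 and 5 (2 and 3) with either the glial or the large-fibre marker level as a covariate. Leaving out 1 library gave 7 to 84 calls, with 84 (70 and 14) without female replicate 1 and 7 without male replicate 4. With the replicate number as a block (replicate block) the count was 6 (3 and 3) and the log2 fold changes were -0.94 for Piezo1, 0.03 for Piezo2 and 0.37 for Asic3. The numbers did not pair the libraries: correlations of same-numbered deviations ran from -0.11 to 0.14 over 4 pairs, and 2 of 4 female libraries correlated best with their own number. Signs turned for Asic1 with glial (-0.28) or large-fibre markers (-0.35), and for Asic2 with glial (0.11) or large-fibre markers (0.11), with the length trend removed (0.0048) and with library size alone (0.0028). Without length scaling, Asic3 over Piezo2 was -0.64 and Stom over Asic1 -0.36. With 1 library left out, log2 fold changes ran from -1.15 to -0.73 for Piezo1 (5 fits, since it did not pass the filter in the other 3), -0.082 to 0.26 for Piezo2, -0.10 to 0.30 for Asic1, -0.089 to 0.048 for Asic2, 0.21 to 0.53 for Asic3 and -0.55 to -0.26 for Stom. The sign of Asic2 turned without female replicate 3 or male replicate 1. In the same way Asic2 over Stom ran from 0.19 to 0.35 log2 units. The difference in log2 ratio ran from 0.70 to 1.27 for Piezo2/Piezo1, -0.39 to 0.11 for Asic2/Asic1, with a positive sign without female replicate 3 or male replicate 1, and -0.081 to 0.385 for Asic3/Asic1, with a negative sign without female replicate 4. With 5 reads added to each count in place of 0.5, the difference for Piezo2/Piezo1 was 0.57. Of the pathway genes, tried under the same alternatives after the data were seen, none was called in any fit. The 2 at an unadjusted p under 0.05 became 4 with length and GC trends removed, without a low-count filter and with the replicate block, 0 with glial and 1 with large-fibre markers. Signs turned for Tmem63c (0.0071 without female replicate 4, -0.23 to 0.0071 with 1 library left out), Stoml1 (-0.051 with length and GC trends removed), Stoml2 (0.0036 without female replicate 2, -0.17 to 0.0036), Trpv1 (0.14 with glial, 0.044 with large-fibre markers) and Kcnk1 (-0.016 and -0.22). The cause of these changes was not tested. The ratios with Stoml3 could not be computed with the length trend removed, because Stoml3 was not among the genes fitted. Depth limits Piezo1 and Stoml3 most, at 86 and 3 reads in all.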
